A study of Rattus norvegicus with 16 samples.

Results

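Iron handling in whole blood of male Sprague-Dawley rats was followed through 10 genes for iron storage (Fth1, Ftl1), uptake and transport (Tfrc, Slc11a2, Slc11a1, Slc25a37), export (Slc40a1), sensing (Aco1, Ireb2) and heme breakdown (Hmox1). The genes were taken by symbol from the 18031 genes listed in every deposited file, each had a single entry, and all 10 were listed in all 16 libraries. All 16 rats were saline controls aged 85 to 90 days, each given 4 saline injections of 1 ml/kg with 2 h between them and bled from the heart 3 h after the last. Since the labels hold a single group, no treatment is compared here, and the question is how these genes vary between control animals and with which blood cells they vary.

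Iron enters most cells bound to transferrin through the transferrin receptor, leaves the endosome through Slc11a2 (DMT1) and is carried into mitochondria by mitoferrin for heme and iron-sulfur cluster synthesis. Surplus iron is stored in ferritin, a shell of heavy (Fth1) and light (Ftl1) subunits, or leaves the cell through ferroportin (Slc40a1). The iron regulatory proteins Aco1 and Ireb2 bind iron-responsive elements in the mRNAs of several of these genes, and in blood reticulocytes, the immature red cells that still make hemoglobin, are known for heavy iron use.

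The libraries held 21466776 to 31189549 estimated counts, and 3 counts correspond to 0.0962 to 0.140 CPM, the count scaled to the library total. The lowest chi-square per degree of freedom between any pair of libraries was 48.0, so each library was counted as 1 sample. Globin transcripts still took 8.75% ± 3.88 (SD, n = 16) of the counts. The markers of reticulocytes, platelets, neutrophils, T cells and B cells that are reported here had counts in all libraries, except the neutrophil marker Cxcr1 (mean of 0.764 normalized counts) and with Cd79a not listed in every file. Of the monocyte markers reported here, Ccr2 was not listed in every file, and Ms4a7 (mean of 0.647) had libraries at 0. Some libraries stood apart. Control 2 had the lowest mean correlation with the others (r = 0.873) and the highest level of the liver list, 14.3 on a log2 scale against a median of 2.21. Control 8 came next on both, with a mean r of 0.924 and a liver level of 9.77. Liver levels of 7.59 in control 7 and 6.30 in control 5 were also above the median. Control 12 had the highest level of the fat list (10.6 against a median of 5.14), and control 10 had the highest level of the heart muscle list (7.35 against a median of 2.60) and the lowest platelet level. The deposited file names hold a token whose meaning the sources used here do not give. Each token was given a letter here, in order of the first control that has it, as file codes A to F. The codes split the libraries into 3 in A, 5 in B, 2 in C, 4 in D and 1 each in E and F. The files of A listed 19356 genes, those of B 20141, those of C 26405 and those of D, E and F 18677. The study repeated its experiment at several dates, and the labels do not tie a control to a date, so differences between codes cannot be told apart from differences between cohorts of rats.

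Promoter sequence was at hand for 5 of the 10 genes in the RefSeq tables (rat build GRCr8), and 4 are shown, because results below turn on their transcripts: ferroportin, the transferrin receptor and the pair of iron regulatory proteins. Each is the 250 bases before the transcription start site in the table, written 5′ to 3′ along the gene's strand. They lie at chr9:55543461-55543710 (minus strand, Slc40a1), chr11:81690319-81690568 (minus strand, Tfrc), chr5:60055645-60055894 (plus strand, Aco1) and chr8:64160838-64161087 (plus strand, Ireb2). Capitals mark matches, on either strand, to the 7 motifs searched.
Slc40a1: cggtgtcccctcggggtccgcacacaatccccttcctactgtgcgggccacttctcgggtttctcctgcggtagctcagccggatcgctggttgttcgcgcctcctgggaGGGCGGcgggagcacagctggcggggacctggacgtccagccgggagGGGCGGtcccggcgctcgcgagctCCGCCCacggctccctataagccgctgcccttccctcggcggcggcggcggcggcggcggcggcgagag
Tfrc: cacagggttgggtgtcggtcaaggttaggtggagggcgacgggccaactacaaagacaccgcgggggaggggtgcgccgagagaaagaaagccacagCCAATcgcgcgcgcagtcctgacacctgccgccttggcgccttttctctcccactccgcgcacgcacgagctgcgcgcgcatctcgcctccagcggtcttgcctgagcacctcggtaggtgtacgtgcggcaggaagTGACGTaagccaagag
Aco1: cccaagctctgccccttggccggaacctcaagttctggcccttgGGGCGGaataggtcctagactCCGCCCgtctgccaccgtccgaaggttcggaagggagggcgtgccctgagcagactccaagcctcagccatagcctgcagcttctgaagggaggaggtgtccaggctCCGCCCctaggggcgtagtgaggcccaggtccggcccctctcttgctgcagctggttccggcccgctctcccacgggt
Ireb2: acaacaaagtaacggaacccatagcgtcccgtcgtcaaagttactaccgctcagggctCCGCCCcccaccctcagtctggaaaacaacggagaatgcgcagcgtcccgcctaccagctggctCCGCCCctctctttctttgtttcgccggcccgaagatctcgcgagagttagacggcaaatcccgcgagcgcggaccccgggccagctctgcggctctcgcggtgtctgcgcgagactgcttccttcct
The motifs were the CRE half-site TGACGT, the CCAAT box, the GC box GGGCGG, the GATA site AGATAA, the AP-1 site TGANTCA, the antioxidant response core TGACNNNGC and the E-box CACGTG. Slc40a1 held 3 GC boxes, Aco1 held 3 and Ireb2 held 2, against 30.5% of 33469 promoters of this length with at least 1. Tfrc held none of these but a CCAAT box (34.0% of promoters) and, 16 to 11 bases before its start, a CRE half-site (6.95% of promoters). AGATAA occurred in 10.3% of promoters and was not among the letters of these 4 windows, nor were TGANTCA (6.34%), TGACNNNGC (10.1%) and CACGTG (5.59%). Slc11a2 has 2 windows in the table, not shown. For Fth1, Ftl1, Slc11a1, Slc25a37 and Hmox1 no window was used here.

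**Figure D1:**
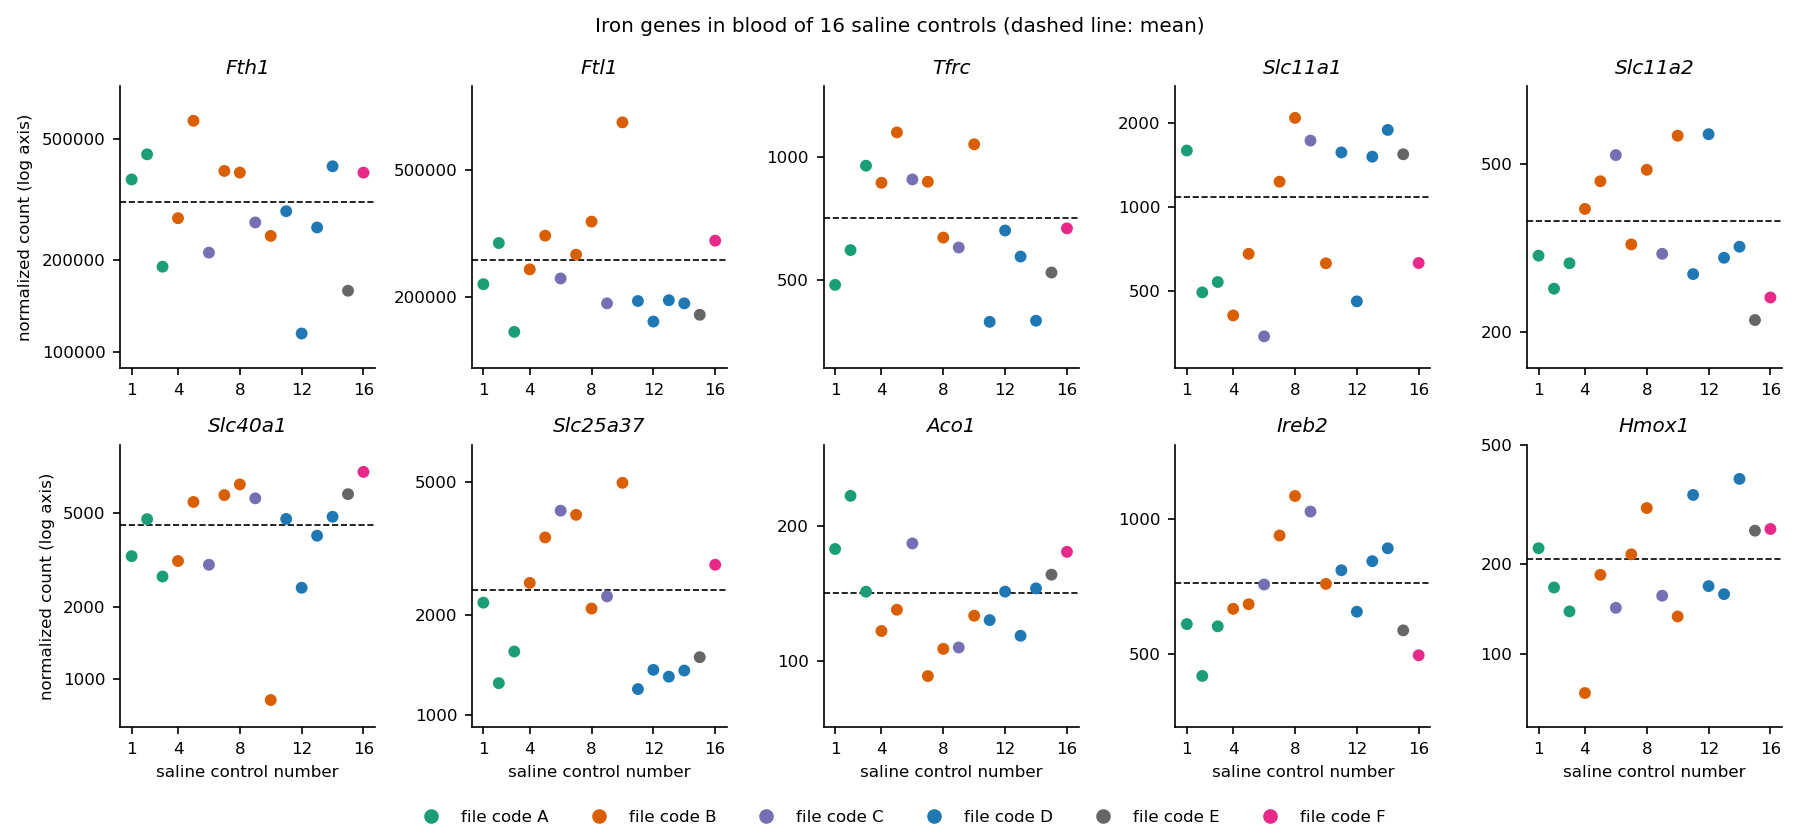
Normalized count (estimated counts divided by DESeq2 size factors, log axis) of each of the 10 iron genes against the number of the saline control, 1 point per library colored by file code, with the mean as a dashed line. Control 10 was lowest for Slc40a1 at 812.6 and highest for Ftl1 at 706483 and for Slc25a37 at 4983.

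Ferritin transcripts took a large share of the counts, and the balance of heavy and light subunit transcripts differed between libraries. Normalized counts of Fth1 had a mean of 310009 ± 119611 (SD, n = 16), with 115045 in control 12 as the lowest value, a median of 281990 and 572658 in control 5 as the highest. Those of Ftl1 had a mean of 262525 ± 131461, with 155886 in control 3 as the lowest, a median of 224517 and 706483 in control 10 as the highest. The next highest Ftl1 value was 345350 in control 8, so control 10 stood alone. The coefficient of variation (CV) was 38.6% for Fth1 and 50.1% for Ftl1, and without control 10 that of Ftl1 was 25.4%. Together Fth1 and Ftl1 took 2.15% ± 0.389 of all counts, between 1.41% in control 12 and 2.77% in control 1. With Ftl, another light chain entry outside the 10 genes, added to them, the share was 3.27% ± 0.647. It then lay between 2.23% in control 12 and 4.58% in control 10.

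The ratio of Fth1 to Ftl1 counts, which is not corrected for transcript length, had a mean of 1.27 ± 0.437 and ranged from 0.340 in control 10 to 2.12 in control 14. The second lowest ratio was 0.685, in control 12. The remaining 14 libraries lay between 0.901 and 2.12. In control 10 Fth1 was 240250, below its median, while Ftl1 was at its maximum. The counting divides reads shared by similar transcripts, so reads may have been split between Ftl1 and Ftl. The sequences of these entries were not compared here. The ratio of Ftl1 to Ftl was 0.883 ± 0.112 and ranged from 0.667 to 1.05, and with both entries summed the ratio of Fth1 to light chain was still lowest in control 10 (0.155) and highest in control 14 (0.998).

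**Figure D2:**
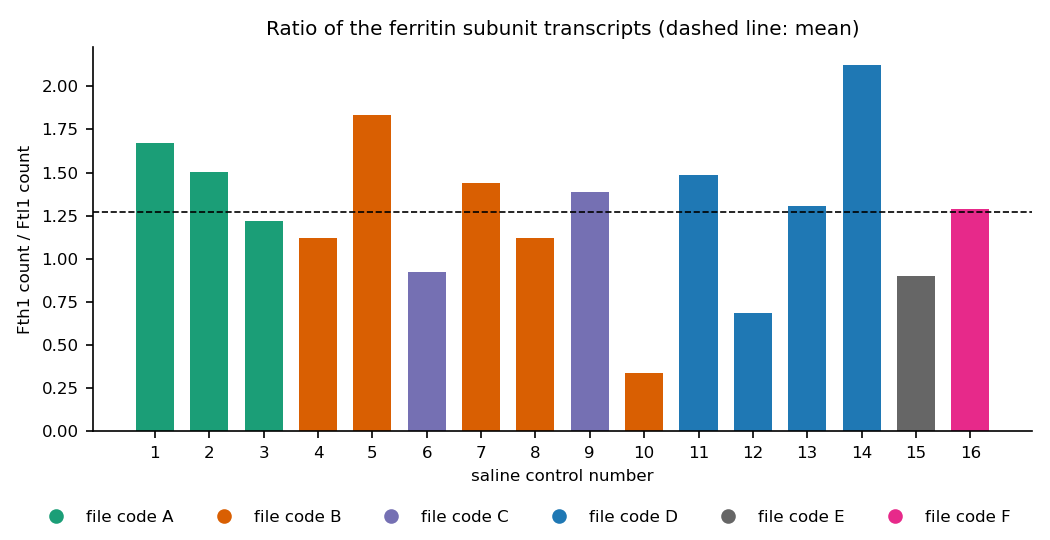
Ratio of Fth1 to Ftl1 counts (no unit) in each saline control, bars colored by file code, with the mean of 1.27 as a dashed line. Control 10 was lowest at 0.340 and control 14 highest at 2.12.

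To ask with which blood cells each gene varied, the slope of every gene was fitted on the level of 6 marker lists, where a level is the mean log2(normalized count + 1) of the list's genes and the slope is the log2 change per 1 SD of that level across the 16 libraries. In bulk blood, more cells of a type and more RNA per cell cannot be told apart. Of 60 slopes of the 10 genes, 8 passed an adjusted p of 0.05 (edgeR's quasi-likelihood test, Benjamini-Hochberg over all genes tested). On the reticulocyte level 3 of 10 genes were called, all higher, where 5.93% of all genes were called and 5.88% were called higher. On the platelet level 1 of 10 was called, higher (3.08% of all genes, 2.73% higher). On the neutrophil level 3 of 10 were called, all higher (23.9%, 14.1% higher), and on the T cell level 1 of 10, lower (13.3%, 8.3% lower). No slope passed on the monocyte level (0.0461% of all genes) or the B cell level (6.69%). At an unadjusted edgeR p under 0.05 there were 4 of 10 members on the monocyte level, against 1795 of 13016 genes. On the B cell level there were 3 of 10, against 3396 of 12755 genes. On the monocyte level DESeq2 also called none of the 10 (559 of 15078 genes), and on the B cell level it called 2 (1698 of 13693 genes). The share on the neutrophil level was close to the background of all genes.

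**Figure D3:**
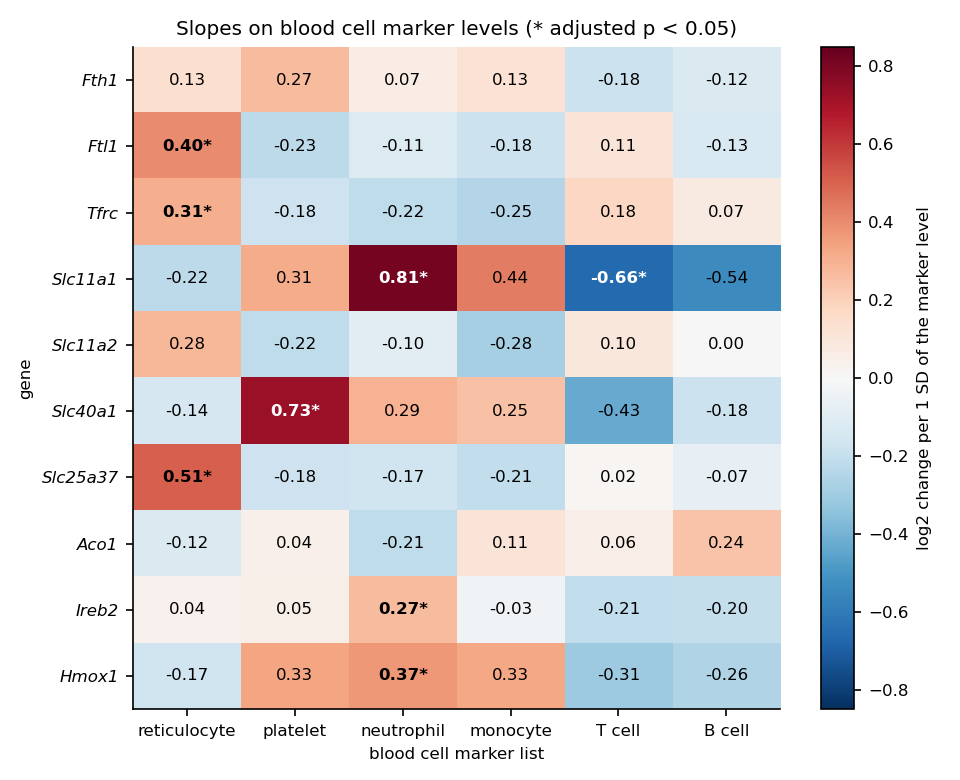
Slope of each iron gene (rows) on the level of each blood cell marker list (columns), as the log2 change per 1 SD of the level across 16 libraries, with color and number giving the slope. Starred slopes passed the adjusted p, the largest of them Slc11a1 on the neutrophil level (0.81) and Slc40a1 on the platelet level (0.73).

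Slc25a37, Ftl1 and Tfrc rose with the reticulocyte level. Slc25a37, mitoferrin-1, which brings iron into the mitochondria of developing red cells, had a mean of 2370 ± 1188 normalized counts, with 1199 in control 11, a median of 2135 and 4983 in control 10. Its slope on the reticulocyte level was 0.51 ± 0.10 (SE, n = 16, edgeR adjusted p = 0.0050), with Pearson r = 0.793 (permutation p = 0.00044) and Spearman rho = 0.706 (permutation p = 0.0033). The 5 libraries with the highest reticulocyte level were controls 10, 5, 8, 7 and 6, and 4 of them held the 4 highest Slc25a37 values. Control 8 was the exception, at 2091 normalized counts. Without controls 5 and 10, r was 0.684 (permutation p = 0.0079).

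Ftl1 rose by 0.40 ± 0.093 per SD of the reticulocyte level (n = 16, edgeR adjusted p = 0.012), with r = 0.749 (permutation p = 0.00045) and rho = 0.697 (permutation p = 0.0035). Fth1 had a slope of 0.13 ± 0.14 (adjusted p = 0.79). Tfrc, the transferrin receptor itself, had a mean of 706.6 ± 231, with 393.7 in control 11, a median of 646.9 and 1149 in control 5, and its slope was 0.31 ± 0.085 (n = 16, edgeR adjusted p = 0.041), with r = 0.713 (permutation p = 0.0022) and rho = 0.600 (permutation p = 0.016). Slc11a2, the carrier that takes iron out of the endosome, had a mean of 365 ± 122 with a range of 213.5 to 587.0, and its slope of 0.28 ± 0.089 missed the threshold with edgeR (adjusted p = 0.079) and passed it with DESeq2 (0.037). Leaving out control 10 gave an adjusted p of 0.054 for Slc25a37 (slope of 0.42), 0.34 for Ftl1 (slope of 0.20) and 0.19 for Tfrc (slope of 0.27), and the Tfrc call was also lost without any one of 10 other libraries (2, 4, 5, 7, 11, 12, 13, 14, 15 or 16). Without controls 5 and 10, r was 0.583 for Ftl1 (permutation p = 0.031) and 0.532 for Tfrc (permutation p = 0.052). Without control 10 alone, Ftl1 followed the platelet level about as closely (r = 0.680) as the reticulocyte level (r = 0.651). Over all 16 libraries its r with the platelet level was -0.320. None of the 3 genes called on the reticulocyte level passed with total count scaling (adjusted p of 0.20 to 0.51), where 35 of 12507 genes were called. Nor did any of them with file code as a factor (at least 0.74), where 0 of 14208 genes were called. The slopes with file code as a factor were 0.47 for Slc25a37, 0.34 for Ftl1 and 0.25 for Tfrc. All 5 libraries of code B were among the 6 with the highest reticulocyte level. For deviations from the means of the codes with 2 or more libraries (n = 14), r was 0.748 for Slc25a37, 0.471 for Ftl1, 0.415 for Tfrc and 0.662 for Slc11a2. In these deviations Tfrc had larger r with the other levels: 0.753 for B cells, 0.661 for T cells, -0.644 for neutrophils, -0.524 for platelets and -0.504 for monocytes. Over all 16 libraries these r of Tfrc were 0.147, 0.382, -0.456, -0.396 and -0.530, in the same order.

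Slc40a1, ferroportin, the exporter that carries iron out of cells, varied with platelets. It had a mean of 4423 ± 1768 normalized counts, with 812.6 in control 10 as the lowest, a median of 4701 and 7427 in control 16 as the highest. The second lowest value was 2414 in control 12, so the 9.14-fold range became 2.72-fold without the extreme library at either end. Its slope on the platelet level was 0.73 ± 0.089 (SE, n = 16, edgeR adjusted p = 6.2e-05), with r = 0.941 (permutation p = 1e-05, the smallest that 100000 permutations can give) and rho = 0.821 (permutation p = 0.00024). Control 10 was lowest on both axes and control 16 highest on both. Without control 10 the slope was 0.41 ± 0.080 (adjusted p = 0.011) and r was 0.851, and with both control 10 and control 12 left out, which lay farthest from the median platelet level, the slope was 0.34 ± 0.084 (adjusted p = 0.066) and r was 0.803 (permutation p = 0.00062). With file code as a factor the slope was 0.72 ± 0.10 (adjusted p = 0.0020).

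Every marker of the platelet list had its lowest value in control 10: Pf4, for platelet factor 4, was 5424 there against a mean of 33518, and Itga2b, a subunit of the fibrinogen receptor, 954.3 against 12375. The same library held the lowest value of F13a1, a coagulation factor subunit of platelets and monocytes, 1032 against a mean of 9007. The 3 genes whose log2 level followed Slc40a1 most closely, among 8373 genes with a symbol and a mean of at least 100, were Cd9 (r = 0.960), a membrane protein abundant on platelets, P2ry12 (r = 0.958), the platelet ADP receptor, and Treml1 (r = 0.952), a platelet granule receptor that is also in the marker list. Their r share the same 16 libraries, control 10 included.

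Slc11a1 (NRAMP1), the metal transporter of the phagosome membrane of phagocytes, varied with neutrophils. It had a mean of 1083 ± 609, with 344.6 in control 6, a median of 955.6 and 2082 in control 8, and the highest CV of the 10 genes, 56.3%. Of the genes with a mean within 2-fold of it, 92.7% had a lower CV. Its slope on the neutrophil level was 0.81 ± 0.11 (SE, n = 16, edgeR adjusted p = 2.5e-05), with r = 0.907 (permutation p = 2e-05) and rho = 0.874 (permutation p = 3e-05). The call held under all 23 alternatives, with slopes between 0.75 and 0.96. No library lay between 679.8 and 1231 normalized counts. The 8 libraries below this gap had neutrophil levels of 10.0 to 11.9 and the 8 above it 11.7 to 14.3, and r within them was 0.684 and 0.452, below the pooled r. Without controls 8 and 14, those with the highest neutrophil levels, r was 0.880. For deviations from file code means it was 0.946 (n = 14).

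On the T cell level Slc11a1 had the opposite slope, -0.66 ± 0.16 (edgeR adjusted p = 0.019), and total count scaling, which moved the median T cell slope of all genes from 0.03 to 0.25, took it to -0.20 (adjusted p = 0.55). The call was also lost without control 8 (slope of -0.63, adjusted p = 0.073), which had the highest neutrophil and the lowest T cell level. On the monocyte level its slope was 0.44 ± 0.20 (adjusted p = 0.35). The genes closest to Slc11a1 were Ifngr1 (r = 0.973), a chain of the interferon gamma receptor, P2ry13 (r = 0.966), an ADP receptor, and Sema4f (r = 0.964), a semaphorin.

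**Figure D4:**
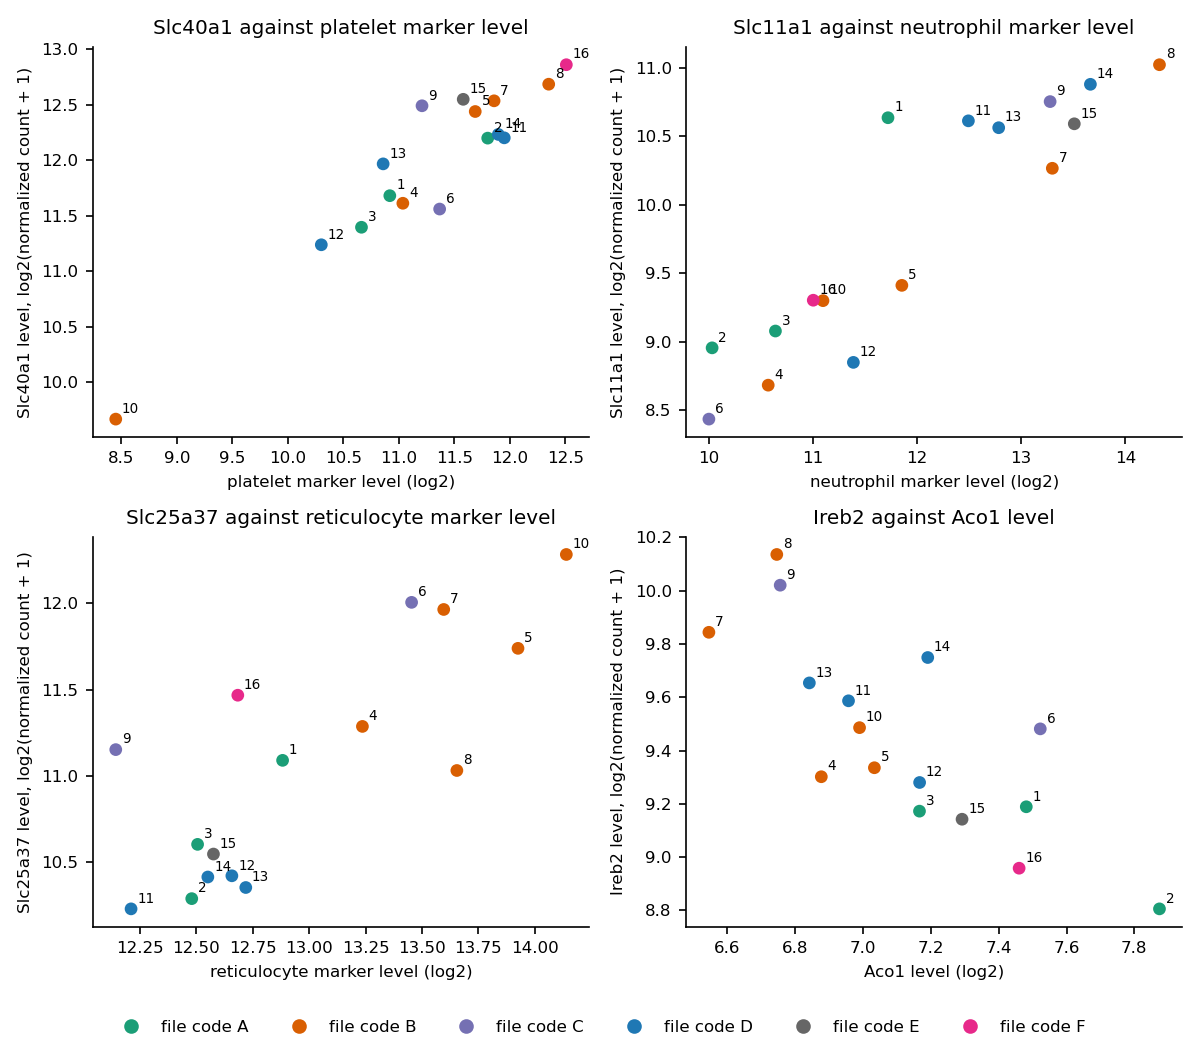
Log2 levels of Slc40a1 against the platelet marker level, Slc11a1 against the neutrophil level, Slc25a37 against the reticulocyte level and Ireb2 against Aco1, 1 numbered point per saline control colored by file code. Slc40a1 rose with the platelet level (r = 0.941, and 0.851 without control 10), and Ireb2 was lower where Aco1 was higher (r = -0.785).

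Aco1 and Ireb2, the iron regulatory proteins 1 and 2, varied in opposite directions. Aco1, which is a cytosolic aconitase when it holds an iron-sulfur cluster, had a mean of 142 ± 36.3 and a CV of 25.6%, from 92.4 in control 7 to 233.6 in control 2. This was the lowest CV of the 10 genes by normalized counts, but with total count CPM it was 32.9%, above those of Ftl1, Ireb2 and Fth1. Ireb2, which has no aconitase activity and is degraded when iron is plentiful, had a mean of 719 ± 191 and a CV of 26.5%, from 446.6 in control 2 to 1124 in control 8. Control 2 thus had the highest Aco1 and the lowest Ireb2. Ireb2 fell by 0.29 ± 0.066 on the log2 scale per SD of Aco1 (n = 16, edgeR adjusted p = 0.045, 1.01% of all genes called, 0.261% lower), with r = -0.785 (permutation p = 0.00038) and rho = -0.765 (permutation p = 0.00090). The adjusted p was 0.31 without control 2, 0.056 without control 10 and 0.063 without control 12, with slopes of -0.24 to -0.30. Without controls 2 and 7, those farthest from the median Aco1 level, r was -0.690 (permutation p = 0.0062). The edgeR call was lost there, with file code as a factor and without globin entries. In all it was lost under 7 of 9 alternatives. For deviations from file code means r was -0.686 (n = 14), while total count scaling took the slope to -0.01 (adjusted p = 0.95), a scaling that moved the median slope of all genes from 0.01 to 0.26.

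Ireb2 rose with the neutrophil level, by 0.27 ± 0.066 (n = 16, edgeR adjusted p = 0.0073), with r = 0.720 (permutation p = 0.0019) and rho = 0.626 (permutation p = 0.011). Aco1 had a slope of -0.21 ± 0.076 (adjusted p = 0.0501), which DESeq2 called (adjusted p = 0.035). On the B cell level the signs were the other way, with 0.24 ± 0.073 for Aco1 (adjusted p = 0.052) and -0.20 ± 0.077 for Ireb2 (adjusted p = 0.11). The Ireb2 call on the neutrophil level was lost without controls 8 and 14 together (adjusted p = 0.078, r = 0.598) and with total count scaling (adjusted p = 0.10). Closest to Ireb2 were Jhdm1d (r = 0.978), a histone demethylase, Atp7a (r = 0.972), a copper transporter, and Brwd3 (r = 0.969). Closest to Aco1 were Bckdha (r = 0.863), a subunit of the branched-chain keto acid dehydrogenase, Acy1 (r = 0.858), an aminoacylase, and Oxa1l (r = 0.852), a mitochondrial insertase.

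Hmox1, heme oxygenase 1, which releases iron from heme and is induced by heme and oxidative stress, had a mean of 208 ± 84.4 normalized counts, with 74.3 in control 4, a median of 176.8 and 386.3 in control 14. It rose with the neutrophil level by 0.37 ± 0.12 (n = 16, edgeR adjusted p = 0.028), with r = 0.631 (permutation p = 0.0088) and rho = 0.638 (permutation p = 0.0097), a call lost without control 8 (slope of 0.35, adjusted p = 0.062) or control 14 (slope of 0.30, adjusted p = 0.073). Without both, the slope was 0.26 and r was 0.483 (permutation p = 0.079). Its slopes on the platelet level, 0.33 ± 0.12 (adjusted p = 0.18), and on the monocyte level, 0.33 ± 0.12 (adjusted p = 0.26), were about as large and did not pass. With the platelet level r was 0.555 and rho 0.747 (permutation p = 0.0014), and with the monocyte level 0.580 and 0.474. Without the 2 libraries farthest from the median level, r was 0.658 with platelets and 0.787 with monocytes (permutation p = 0.00078). Hmox1 also lost its neutrophil call with total count scaling. Its nearest gene was Cebpb (r = 0.894), a transcription factor of myeloid cells.

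Of 6 pairs of genes with related roles, 2 passed, Aco1 and Ireb2 as above and Tfrc and Slc25a37. Slc25a37 rose by 0.51 ± 0.11 per SD of Tfrc (n = 16, edgeR adjusted p = 0.033, 3.52% of all genes called, 2.13% higher), with r = 0.726 (permutation p = 0.0016) and rho = 0.765 (permutation p = 0.00079). Without control 10 the adjusted p was 0.15, without controls 5 and 10 r was 0.613, and for deviations from file code means r was 0.391 (n = 14). The edgeR call was lost under 4 of 9 alternatives: each of these omissions, file code as a factor and total count scaling. The ferritin subunits were not called, with a slope of Ftl1 on Fth1 of 0.17 ± 0.15 (adjusted p = 0.72, 0.806% of all genes called) and r = 0.400, which was 0.759 without control 10. Slc11a2 on Slc11a1 had a slope of -0.18 ± 0.10 (adjusted p = 0.22), Slc40a1 on Hmox1 0.35 ± 0.15 (adjusted p = 0.19) and Fth1 on Hmox1 0.17 ± 0.15 (adjusted p = 0.50), where 19% of all genes were called on Slc11a1 and 1.92% on Hmox1. Among members outside these pairs, singled out after their values were seen, Tfrc fell by 0.30 ± 0.092 on the log2 scale per SD of Slc11a1 (edgeR adjusted p = 0.028), while Ireb2 rose by 0.23 ± 0.074 (adjusted p = 0.035) and Hmox1 by 0.42 ± 0.11 (adjusted p = 0.010). Slc11a1 itself followed the neutrophil level (r = 0.907), and whether these slopes go beyond that level was not tested. Of all 6 member slopes called in the 5 fits that hold the pairs, 1 stayed called with total count scaling. Without the 2 farthest libraries 1 of the 6 did. Hmox1 fell by 0.39 ± 0.10 on the log2 scale per SD of Tfrc (edgeR adjusted p = 0.046), with r = -0.657 (permutation p = 0.0055) and rho = -0.612 (permutation p = 0.014). That call was lost without controls 5 and 10 (adjusted p = 0.40, r = -0.705), where 0 genes were called, without control 10 alone (adjusted p = 0.16) and with file code as a factor (adjusted p = 0.13), with slopes of -0.37 to -0.47.

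Between file codes, the only difference called among the 10 genes was in mitoferrin-1. Slc25a37 in code B was 2497, 3417, 3995, 2091 and 4983 normalized counts in controls 4, 5, 7, 8 and 10, and in code D 1199, 1370, 1307 and 1363 in controls 11 to 14. All 4 values of code D were below all 5 of code B. The difference D minus B was -1.36 ± 0.27 on the log2 scale (edgeR adjusted p = 0.031), where 2.3% of 12952 genes were called, and 293 of these 298 were lower in D (2.26%). Ftl1 also did not overlap, with 244730 to 706483 in B and 167944 to 195863 in D, but with a difference of -0.99 ± 0.33 it missed the threshold (adjusted p = 0.17), as did Tfrc with -0.85 ± 0.25 (adjusted p = 0.12). DESeq2 called all 3, with 4.8% of the genes it tested. Values of 5.79% of all genes did not overlap between B and D. The Slc25a37 call was lost without control 5, 7 or 10 of code B or any library of code D (adjusted p 0.060 to 0.12, differences of -1.19 to -1.38), and the count over all genes was 2 without control 11 or control 14 and 3 without control 5 or control 13. Without control 4 it rose to 641 genes lower and 60 higher in D. With total count scaling, which moved the median of all genes in D minus B to 0.53, the difference was -0.82 (adjusted p = 0.18). The reticulocyte level, 13.2 to 14.1 in B and 12.2 to 12.7 in D, moved with this difference, and its part in it was not tested.

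In B minus A and D minus A edgeR called none of 12952 genes (0%), but without control 4 of code B it called 506 in B minus A (3.93%), none of them among the 10. DESeq2 called Slc25a37 in B minus A (1.03 ± 0.29, adjusted p = 0.017, with 3.85% of all genes called) and none of the 10 in D minus A (0.0541%). At an unadjusted p under 0.05 edgeR had 4 of the 10 genes in B minus A (13.6% of all genes) and 2 in D minus A (5.41%). Aco1 was lower in B by 0.71 ± 0.19 on the log2 scale (adjusted p = 0.13) and Ireb2 higher by 0.57 ± 0.22 (adjusted p = 0.26). By CPM after TMM scaling, Aco1, Ireb2 and Slc11a2 did not overlap between A and B (6.52% of all genes), and Aco1 and Ireb2 did not between A and D (7.03%). Aco1 in code A was 177.7, 233.6 and 142.7 normalized counts, all above the highest value of 130.0 in B. The highest value in D, 145.1, lay above the lowest of A, so by normalized counts Aco1 did overlap between A and D.

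**Figure D5:**
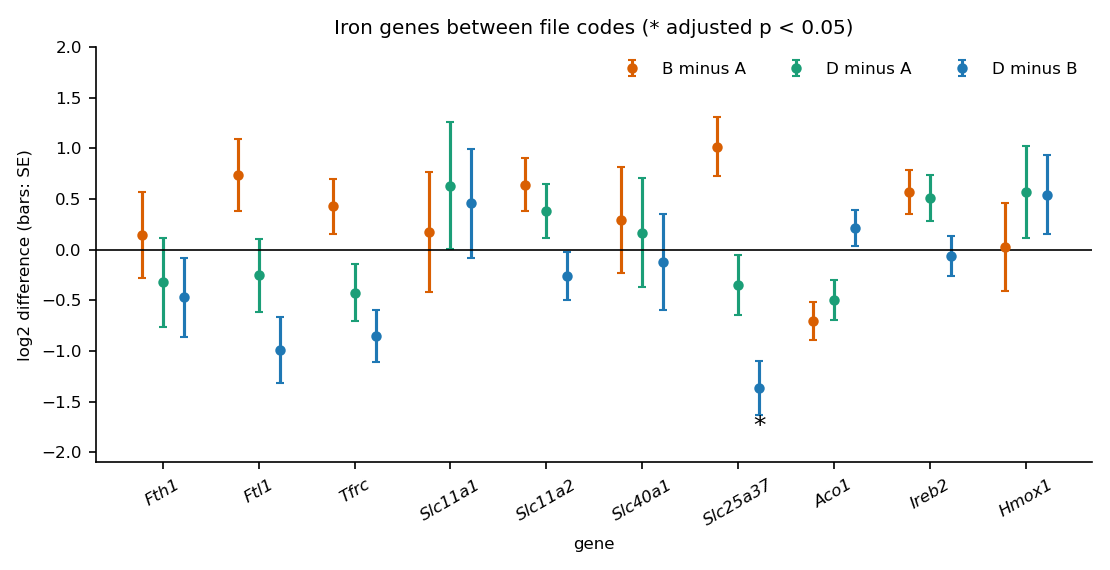
Difference in log2 expression between file codes for each of the 10 iron genes, with points for the edgeR estimate and bars for 1 SE, from 12 libraries (3 in A, 5 in B, 4 in D). The starred difference, Slc25a37 in D minus B at -1.36, is the only one that passed the adjusted p.

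A wider list of 49 iron genes outside the 10 was read from the same fits. Of 37 tested on the reticulocyte level, 13 rose and 0 fell, against 5.88% of all genes rising, with a median slope of 0.19 against -0.04 over all genes. At an unadjusted edgeR p under 0.05 there were 17 of 37, against 1620 of 12750 genes. DESeq2 called 15 of 45 higher and 0 lower, against 927 higher and 17 lower of 16111 genes. With file code as a factor no gene was called on this level, of the list or otherwise, and without control 10 the count over all genes fell from 756 to 327. Among those with the smallest p were Blvrb (0.54 ± 0.080, adjusted p = 0.00054), a biliverdin reductase, Steap3 (0.45 ± 0.073), the ferrireductase of the red cell endosome, Isca1 (0.54 ± 0.089) and Iscu (0.48 ± 0.078), of iron-sulfur cluster assembly, and Abcb10 (0.46 ± 0.077), a transporter of the inner mitochondrial membrane that binds mitoferrin-1. In D minus B 5 of 39 fell, Hscb, Blvrb, Abcb10, Slc25a39 and Iscu, between -1.04 and -1.35, against 2.26% of all genes falling. Each of these 5 also rose with the reticulocyte level.

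On the neutrophil level 3 of 37 rose and 1 fell, 10.8% of the list against 23.9% of all genes called. Those that rose were Fbxl5 (1.12 ± 0.069, edgeR adjusted p = 4.9e-09), the iron-sensing ligase subunit that marks Ireb2 for degradation, Steap4 (1.28 ± 0.096, adjusted p = 5.4e-08), a metalloreductase, and Lcn2 (3.16 ± 0.41, adjusted p = 1.8e-05), which binds bacterial siderophores, and Nfs1, the cysteine desulfurase of cluster assembly, fell by 0.26 ± 0.060 (adjusted p = 0.0042). Steap4 and Fbxl5 had the opposite sign on the T cell level, where 2 of 37 fell (5.41%, against 8.3% of all genes called lower). On the B cell level 1 of 37 rose (Nfs1) and 3 fell (Lcn2, Steap4 and Fbxl5), 10.8% against 6.69% of all genes. On the platelet level edgeR called 0 of 40, against 3.08% of all genes, and 9 had an unadjusted p under 0.05, against 2198 of 13429 genes. DESeq2 called 2 of 43 higher there, against 646 of 14383 genes. On the monocyte level edgeR called 0 of 39, against 0.0461% of all genes. Of these, 3 had an unadjusted p under 0.05, against 1795 of 13016 genes. DESeq2 called 1 of 44 higher and 6 lower on the monocyte level, against 165 higher and 394 lower of 15078 genes. Of genes made in the liver, Hamp and Hpx were highest in control 2, where Hamp, for the hormone hepcidin that removes ferroportin from the cell surface, was 1874 against 389.0 in the next library, and Hpx, hemopexin, 20426 against 3365, while Hp, haptoglobin, was highest in control 8 (62891, against 24142 in control 2). Slc40a1 in control 2, at 4697, was near its median, but this is a transcript count, and ferroportin protein was not measured. Steap2 and Hfe2 had no count in at least 8 libraries.

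The nearest genes of the remaining members, by r of log2 levels across the 16 libraries, were these. Slc25a37 was closest to Ell2 (r = 0.959), a transcription elongation factor, to Slc4a1 (r = 0.946), the red cell anion exchanger and a marker of the reticulocyte list, and to Fam117a (r = 0.942). Ftl1 was closest to the other light chain entry, Ftl (r = 0.961), then to Fdps (r = 0.956), of isoprenoid synthesis, and Ubl4a (r = 0.953). Tfrc was closest to Cnbp (r = 0.902), Blm (r = 0.883), a DNA helicase, and Katna1 (r = 0.867), and Slc11a2 to Bub1 (r = 0.851), a mitotic checkpoint kinase, Ipp (r = 0.840) and RGD1560175 (r = 0.827). Fth1 had the lowest r with its nearest genes, Mthfd2 (r = 0.779), Ap2m1 (r = 0.764) and Gabrr2 (r = 0.724). Hmox1 was next closest to Slc25a24 (r = 0.876) and Sec11c (r = 0.857).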

How the data were processed

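Estimated counts per gene were deposited by the authors, who aligned reads with Bowtie 0.12.9 and counted them with RSEM 1.2.0 (base calls with CASAVA 1.8.2, versions per the submitters' processing notes) on the rat build rn5. The deposited expected counts are not normalized, and RSEM divides reads shared by similar transcripts. The authors' replacement of outlying values was not applied here. Counts were rounded, and the 18031 genes listed in all 16 files were fitted with edgeR 4.0.16 in R 4.3.3 (TMM, filterByExpr, quasi-likelihood test, Benjamini-Hochberg adjustment, threshold 0.05), with DESeq2 1.42.0 as an alternative. The standard error is the absolute estimate divided by the square root of F. Normalized counts are counts over DESeq2 size factors, with a pseudocount of 1 for log2 levels. Levels use markers listed in every file with a mean of at least 10. Slopes omit the list's own genes. Permutation tests were two-sided with 100000 resamples. P-values measure the spread between these animals. The main slope fits and the permutations took no account of file code, so their p-values also take in differences between codes. The fit code was tested on simulated data. Members, lists and pairs were chosen with earlier results of these data known. Named were the 10 members, the 3 genes closest to each, and from the iron list up to 6 per fit with the smallest p. Pf4, Itga2b, F13a1, Hamp, Hpx and Hp were named after their values were seen. Some listed genes are not reported here.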

Additional observations from a re-analysis of the deposited data

How the results depend on the processing

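No paired analysis was possible because the labels hold a single group. Counts of members called moved as follows. With DESeq2 the calls were 13 of 60 marker relations, against 8 (11.7% of slopes over all genes on the same 6 lists, against 8.74%). They were 3 of 10 genes in D minus B (4.8% of all genes) and 1 in B minus A (3.85%), against 1 (2.3%) and 0 (0%). Total count scaling gave 6 of 60 relations (18.2% over all genes), among them 2 of the main 8, and 0 in D minus B (0.0463%). It gave 0 of 6 pairs, against 2 (11.2% of slopes over all genes in the 5 fits that hold the pairs, against 5.16%). This scaling took the median of all genes from -0.03 to -0.50 in B minus A and from 0.04 to 0.53 in D minus B. Without the 2 farthest libraries 1 of 60 relations (Slc11a1 on neutrophils, 2.66% over all genes) and 0 of 6 pairs (3.35%) remained past the threshold. With file code as a factor 0 of 6 pairs did (3.2%). Without globin entries 1 of 6 pairs passed (5.44%). Leaving out single libraries gave 6 to 10 of 60 relations (3.99% to 9.37% over all genes) and 0 to 1 genes in D minus B (0.0155% to 5.44%). It gave 0 in B minus A (0% to 3.93%) and in D minus A (0% to 0.015%), and 0 to 1 pairs (3.77% to 4.68%). For the pairs only controls 2, 10 and 12 were left out. Control 10 was chosen after seeing the data, as were the single libraries other than 2 and 12 for the relations. The slope of Ftl1 on Fth1 changed sign, to -0.094 with total count scaling and -0.012 with file code as a factor. With total count CPM the CV was 30.8% for Fth1, 25.6% for Ftl1, 39.8% for Slc25a37 and 32.9% for Aco1, and without single libraries it was 25.4% to 52.2% for Ftl1. The cause of these changes was not tested.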
